A study of Mus musculus with 45 samples.

Results

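Noggin and 8 other secreted antagonists of bone morphogenetic proteins (BMPs) were followed across mouse forelimb buds cultured with bisphenol AF. The 9 genes, of 35272 in the joined read count tables, were Nog, Chrd, Chrdl1, Grem1, Nbl1, Fst, Fstl3, Bmper and Twsg1. They were picked by name, as a family, because Nog was lower after 3 h with 5 µM of the compound. That contrast therefore describes the genes here, and calls made in it are no test of them.

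BMPs are secreted growth factors that bind paired type I and type II receptors, which phosphorylate SMAD proteins that enter the nucleus and switch on targets such as the Id genes. Antagonists bind the ligands outside the cell and keep them from the receptors, and several of them are themselves induced by BMP signalling. In the limb this balance shapes the digits, the outgrowth of the bud, the condensation of cartilage and the joints: mice without noggin form overgrown cartilage and lack joints, and gremlin 1 keeps the signalling loop between mesenchyme and apical ectoderm running.

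Forelimbs of CD1 mouse embryos at gestation day 13 were cultured in bottles that held limbs of male and female embryos together. Each bottle received the vehicle DMSO (control), 1 µM BPAF or 5 µM BPAF for 3, 24 or 48 h, which made 9 groups of 5 libraries. BPAF is bisphenol AF, a fluorinated analogue of bisphenol A. RNA was selected for its poly-A tail, and each library held between 14901842 and 25154115 counted reads (median 17820524).

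The text on treatment names the compound as bisphenol A while abbreviating it BPAF. For 1 library, 1 µM 3 h replicate 5, the treatment field names 10 µM BPA where the title gives 1 µM BPAF, and the title was followed. At 48 h with 1 µM, the library code of replicate 1 ends as the title of replicate 2 does, and the reverse. Whether bottles came from separate days is not in the labels, and p-values reflect the spread of these libraries. In such pieces of whole tissue, fewer cells of a type and less RNA per cell cannot be told apart.

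The tissue carried forelimb transcripts: Tbx5, the forelimb T-box factor, ranged from 200.2 to 308.6 CPM, the counts scaled to library size, over the 45 libraries. The hindlimb factors Pitx1 and Tbx4 ranged from 1.557 to 7.844 and from 17.37 to 29.08 CPM. Although the limbs of both sexes were pooled, 4 Y-linked genes summed to under 1 CPM in 3 libraries: 0.101 in control 3 h replicate 3, 0.4569 in 1 µM 3 h replicate 1, and 0.1612 in replicate 2 of 1 µM at 48 h. In the other 42 libraries their sum was 53.55 to 316.6 CPM. The 3 h control against 5 µM difference in Nog was −0.60 on the log2 scale without that control library.

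All 9 genes passed the filter on low counts in each of the comparisons made. Nog (ENSMUSG00000048616) is a gene of 1 exon on the minus strand at chr11:89300638-89302332 (mm10), and no annotated gene overlaps it. Chrd, Fst and Fstl3 each overlap a gene on the opposite strand, and the strand setting of the counting is not given in the sources used here. Those partners, Thpo, Gm47040 and Prss57, had median levels of 1.33, 0 and 0 CPM.

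A RefSeq table of promoters (GRCm38.p6) held 6 of the 9 genes, Grem1, Nbl1, Bmper, Fstl3, Chrd and Twsg1; Nog, Chrdl1 and Fst have no entry. The 250 bases before the start are printed for Grem1 and Chrd because these genes moved in opposite directions in control culture. Capitals mark GGCGCC, a GC-rich sequence that BMP-activated SMADs are known to bind; it reads the same on both strands.
Grem1, chr2:113758649-113758898, minus strand: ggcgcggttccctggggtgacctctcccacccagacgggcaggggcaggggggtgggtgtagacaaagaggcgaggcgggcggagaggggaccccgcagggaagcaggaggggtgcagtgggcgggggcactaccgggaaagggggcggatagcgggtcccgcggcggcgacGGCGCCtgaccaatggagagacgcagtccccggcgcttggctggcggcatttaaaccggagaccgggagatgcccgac
Chrd, chr16:20732877-20733126, plus strand: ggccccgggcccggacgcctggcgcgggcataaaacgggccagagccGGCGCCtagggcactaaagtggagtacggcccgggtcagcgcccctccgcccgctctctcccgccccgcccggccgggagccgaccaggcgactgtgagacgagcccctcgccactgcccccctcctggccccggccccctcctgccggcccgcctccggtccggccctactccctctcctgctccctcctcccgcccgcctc
The match lies at −78 to −73 from the start of Grem1 and at −203 to −198 from that of Chrd. GGCGCC was in 3 of the 6 promoters (Grem1, Chrd and Nbl1) and in 9.59% of the 32851 promoters of that length. The GC box GGGCGG, searched on both strands, was in 6 of 6 against 32.7% of all, CCAAT in 1 (Grem1) against 33.8%, and TATAAA in 1 (Fstl3) against 12.4%. These windows are GC-rich, 64.4% to 78% G and C against a median of 52.4% over all promoters.

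Per kb of gene length, which allows levels to be compared between genes, the DAN-family antagonist Nbl1 was the most abundant in control limbs at 3 h, with 75.58 ± 4.28 CPM per kb (SD, n = 5). Twsg1, twisted gastrulation, which forms a complex with chordin and BMP, followed at 42.04 ± 2.47. Nog came next at 26.58 ± 1.59 and then Grem1 at 11.61 ± 0.999, each far outside the spread of its neighbours. Fst (7.66 ± 0.508) and Bmper (6.894 ± 0.701) did not differ beyond their spread, and Chrdl1 (5.315 ± 0.411), Chrd (3.567 ± 0.421) and Fstl3 (0.5204 ± 0.204) closed the order. By 48 h the middle of the order had changed: Bmper (10.32 ± 0.42) and Fst (10.15 ± 0.77) lay above Grem1 (7.34 ± 0.442), while Chrd (6.428 ± 0.83) and Chrdl1 (6.001 ± 0.772) lay within each other's spread.

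**Figure D1:**
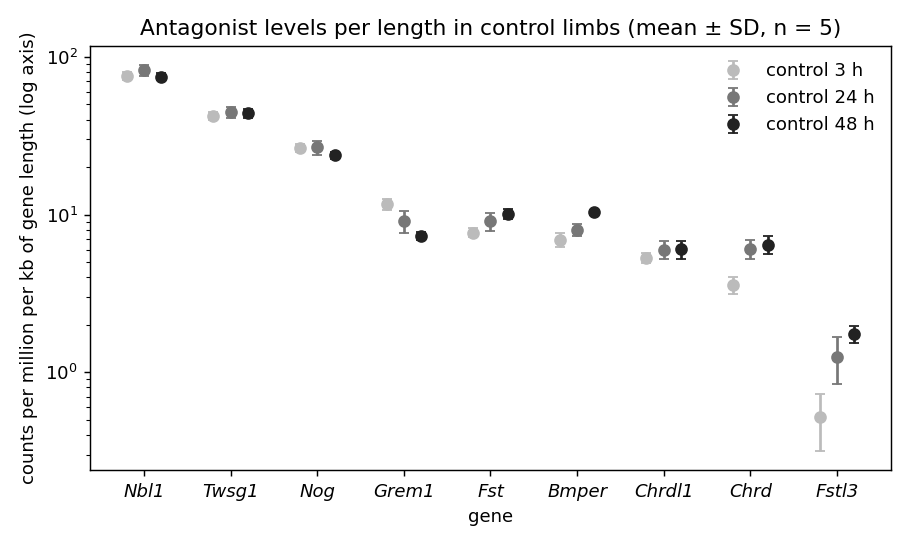
Levels of the 9 antagonists per kb of gene length in control limbs on a log axis, as means and SD of 5 libraries at 3, 24 and 48 h. Nbl1, Twsg1 and Nog stay the top 3 at each time, Grem1 falls from 11.61 to 7.34 and Fstl3 rises from 0.5204 to 1.748 CPM per kb.

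At 3 h Nog was lower in each library with 5 µM BPAF than in any control. The control libraries held 48.93, 44.11, 44.27, 41.74 and 46.21 CPM of Nog. The libraries with 5 µM BPAF held 30.42, 25.34, 31.44, 30.86 and 30.27 CPM. The groups did not overlap, 4 of the 5 treated libraries lay close together between 30.27 and 31.44 CPM, and replicate 2 lay below them. The difference was −0.60 ± 0.07 on the log2 scale (fitted value ± SE), or 0.66 of the control level. It ranged from −0.63 to −0.55 over the alternatives tried, and was −0.55 without the lowest library.

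With 1 µM BPAF for 3 h, Nog stood at 44.97, 44.79, 33.23, 39.13 and 41.43 CPM. These values overlap the controls and lie above all 5 libraries with 5 µM. The 5 µM values are those that picked Nog, and the share of all genes that separate these doses at 3 h was not counted. The fitted difference from control was −0.14 ± 0.08; it shares its controls with the contrast that picked Nog and is given with no test. It was −0.15 without the library whose treatment field disagrees.

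**Figure D2:**
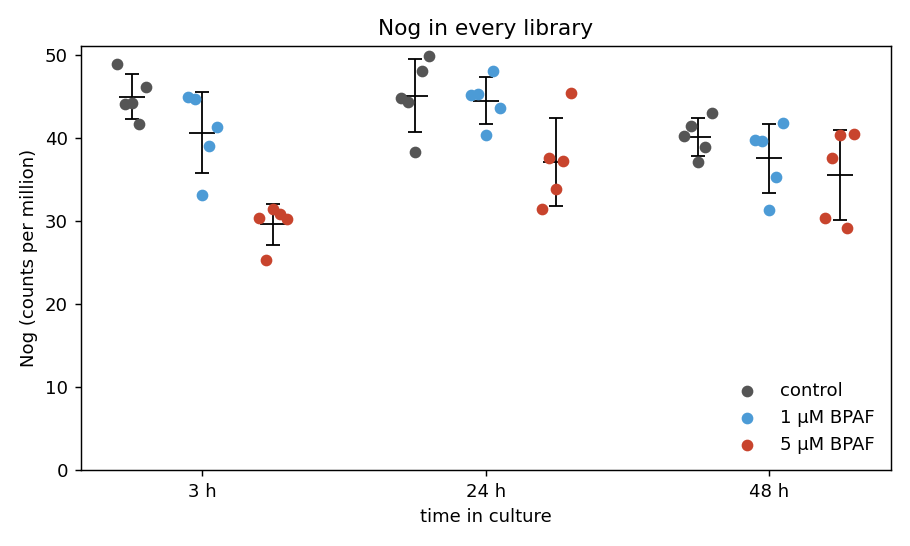
Nog in CPM in each of the 45 libraries, by time in culture and dose; points are libraries, bars the mean and SD of 5. At 3 h the libraries with 5 µM BPAF sit between 25.34 and 31.44 CPM, under controls at 41.74 to 48.93 CPM, and at 24 and 48 h the groups overlap.

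At 24 h Nog stood at 44.83, 44.36, 38.42, 48.08 and 49.92 CPM in the controls. With 5 µM BPAF it stood at 31.47, 37.67, 33.85, 37.23 and 45.5 CPM, so 4 of 5 treated libraries lay below each control and replicate 5 lay among them. The fitted difference was −0.27 ± 0.10, which did not pass edgeR's quasi-likelihood test (adjusted p = 0.26). Replicate 5 of both 24 h groups stood apart in haemoglobin transcripts, with sums of 2489 CPM (control) and 2525 CPM (5 µM) against 992.5 to 1554 CPM in the other 8, and the treated one had the lowest Y-linked sum at that time, 53.55 CPM.

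In all, 3 settings brought the 24 h difference in Nog past the threshold. Without 5 µM 24 h replicate 5 it was −0.35 (edgeR adjusted p = 0.0397), and with the Y-linked level as a covariate −0.42 (adjusted p = 0.0111). With the replicate number as a block it was −0.28 (adjusted p = 0.0362). By the rule used here the numbers do not count as pairing these samples: 4 of 5 pairs correlated above 0.1, over a range of 0.012 to 0.412. Without replicate 5 of both groups it was −0.32 (adjusted p = 0.0546). Against 1 µM at 24 h (45.18, 45.35, 40.36, 48.13 and 43.63 CPM) the difference was −0.26 ± 0.09 (adjusted p = 0.273), and without 5 µM 24 h replicate 5 it was −0.34 (adjusted p = 0.0174).

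At 48 h the controls held 40.31, 41.46, 37.16, 38.91 and 43.03 CPM of Nog and the 5 µM libraries 30.39, 37.61, 40.41, 29.24 and 40.48 CPM. Of the treated libraries 2 lay below each control and the other 3 lay inside the control range. The difference was −0.20 ± 0.09 (edgeR adjusted p = 0.263). From 24 to 48 h the 5 µM effect on Nog changed by 0.09 ± 0.14 (adjusted p = 1, interaction term of edgeR). With 1 µM BPAF, Nog differed from control by −0.02 ± 0.07 at 24 h and −0.10 ± 0.08 at 48 h, and neither passed.

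Nog made up 14.8% ± 0.872 of the summed per-length level of the 9 antagonists in 3 h controls (SD, n = 5) and 10% ± 0.634 with 5 µM BPAF. The sum itself was 179.8 ± 3.49 and 174.9 ± 4.06 CPM per kb. These shares are descriptions, since Nog's 3 h values enter them. At 48 h noggin's share was 12.8% ± 0.725 in controls and 11.5% ± 1.42 with 5 µM.

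Over all 45 libraries, with each time centred on its own mean, the genes whose log2 level tracked Nog most closely among 12679 were Tubb2a (Pearson r = 0.703), Pcbp4 (0.689), Naa38 (0.672), Tubb2b (0.665) and Ilvbl (0.662). Tubb2a and Tubb2b encode β-tubulins. Over the 9 group means the closest were Neurl2 (0.926), Kcnk3 (0.92), Gabarapl2 (0.906), Pde1b (0.893) and Anks3 (0.892). The other 8 antagonists tracked Nog with r between −0.112 and 0.215. These are descriptions: the libraries share treatments, and Nog's 3 h values enter them.

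On chromosome 11, the closest of the 12 tested genes within 1000 kb of Nog, Dgke, lies 234 kb away and differed by −0.23 ± 0.11 at 3 h with 5 µM. Msi2, an RNA-binding protein gene at 582 kb, differed by 0.21 ± 0.05, and the other 10 by −0.11 to 0.28.

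Of the other direct BMP binders, chordin (Chrd) and chordin-like 1 (Chrdl1) differed at 3 h with 5 µM by −0.08 ± 0.11 and −0.08 ± 0.07. At 48 h Chrdl1 stood at 47.17, 48.12, 49.73, 50.86 and 62.73 CPM with 5 µM BPAF and at 43.92, 36.52, 33.83, 46.35 and 42.15 CPM in controls. Each treated library lay above each control, and the highest, replicate 5, stood apart. The difference was 0.33 ± 0.10, just short of the threshold (edgeR adjusted p = 0.0507), and against 1 µM it was 0.28 ± 0.09 (adjusted p = 0.0789). With the library code as a replicate block, which counts as pairing by the rule used here, the edgeR adjusted p against 1 µM was 0.00882. At 24 h the difference from control was 0.21 ± 0.09.

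Chrd at 48 h held 38.46, 36.64, 29.11, 32.53 and 33.37 CPM with 5 µM BPAF and 39.91, 46.98, 32.55, 41.97 and 39.73 CPM in controls. The groups overlapped through control replicate 3, at 32.55 CPM. The difference was −0.26 ± 0.10 (edgeR adjusted p = 0.133; 0.0431 without control 48 h replicate 3), and against 1 µM −0.25 ± 0.08 (adjusted p = 0.0652; 0.028 with the library code as a block; 0.0351 without 5 µM 48 h replicate 1). Chordin and chordin-like 1 thus lay on opposite sides of control, and neither passed against control in the fit described. Against control, Chrdl1 was called by DESeq2 (adjusted p = 0.0172), and by edgeR with RLE size factors, no filter, all 9 groups in one fit or the Y-linked covariate (adjusted p from 0.0116 to 0.0464). It was also called without any 1 of control 48 h replicates 1 and 4 and 5 µM 48 h replicate 1 (adjusted p from 0.029 to 0.049). The Y-linked covariate also called Chrd (adjusted p = 0.0364). With the replicate number as a block, which does not count as pairing here, edgeR called both Chrd (adjusted p = 0.0283) and Chrdl1 (adjusted p = 0.0152).

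In the DAN family, whose members hold BMPs through a cystine knot, Grem1 at 48 h stood at 18.91, 25.28, 25.34, 27.82 and 26.31 CPM with 5 µM BPAF. The controls held 31.72, 30.74, 29.89, 32.27 and 27.6 CPM, so the groups overlapped only through control replicate 5 and 5 µM replicate 4. The difference was −0.32 ± 0.10 (edgeR adjusted p = 0.0562, and 0.0455 without 5 µM 48 h replicate 4). Grem1 was also called by DESeq2 (adjusted p = 0.0322). By edgeR it was called with no filter (adjusted p = 0.046), all 9 groups in one fit (0.043) or the replicate number as a block (0.0357). With RLE size factors or the Y-linked covariate it was not called. Nbl1 differed by 0.13 ± 0.05 at 3 h, and by −0.10 ± 0.09 at 24 h and −0.06 ± 0.07 at 48 h, which did not pass.

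The follistatins bind activins and myostatin, and follistatin itself also binds BMPs, more weakly. At 3 h Fst stood at 28.89, 29.34, 29.16, 31.18 and 26.55 CPM with 5 µM BPAF and at 31.49, 35.15, 36.24, 35.05 and 37.81 CPM in controls. The groups did not overlap, which made Fst, besides Nog, the second of 2 members so placed; 1.74% of all genes were. The difference was −0.27 ± 0.07. At 24 and 48 h the Fst groups overlapped and the differences did not pass.

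Fstl3, the scarcest member, ranged from 0.5771 to 6.458 CPM and did not pass against control at either dose. Bmper, a chordin-like protein that can both block and promote BMP signalling, stood at 56.34, 46.91, 59.94, 57.19 and 56.2 CPM with 5 µM BPAF at 48 h and at 46.55 to 52.08 CPM in controls; it did not pass. Twsg1 did not pass in any comparison either.

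**Figure D3:**
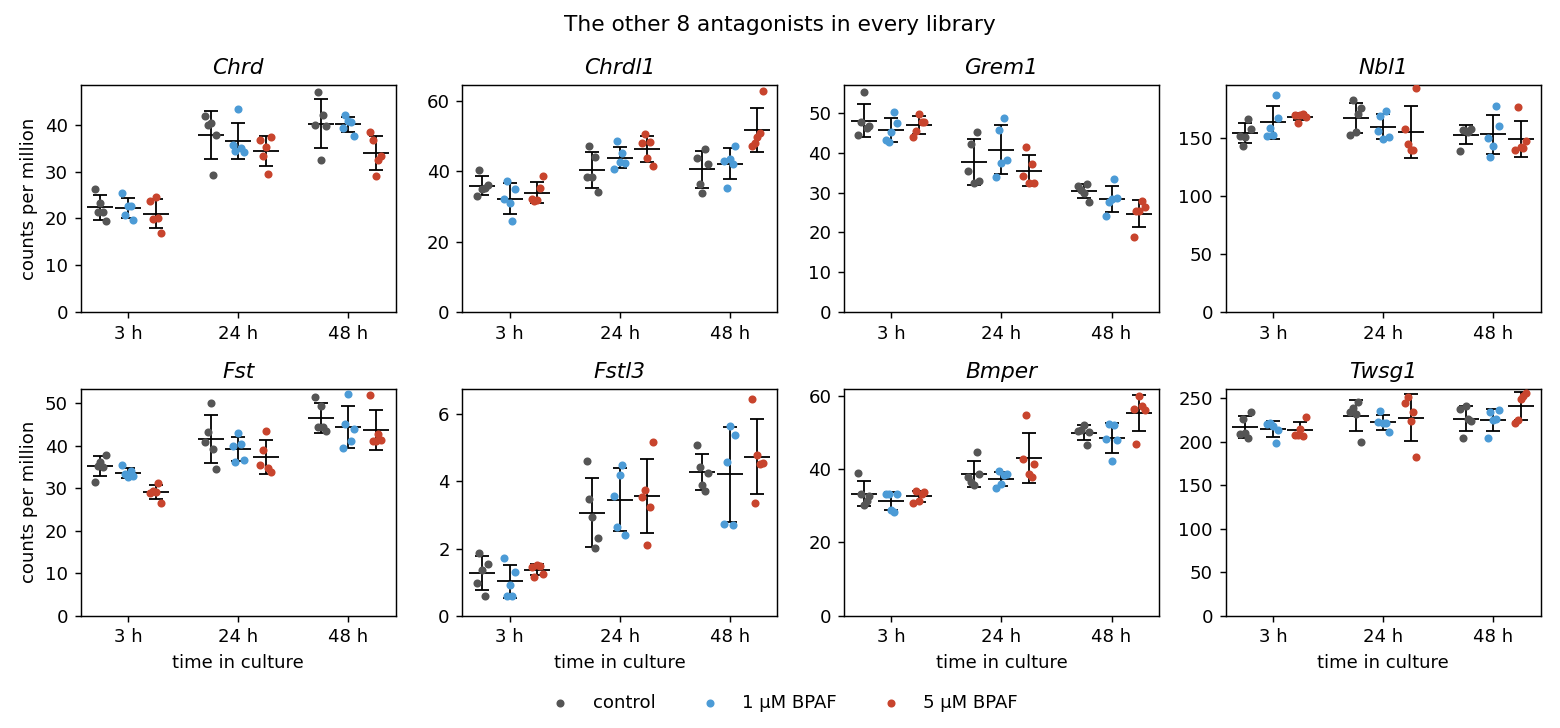
CPM of the other 8 antagonists in each of the 45 libraries, by time in culture and dose; points are libraries, bars the mean and SD of 5. Chrdl1 at 48 h separates 5 µM BPAF (47.17 to 62.73 CPM) from control (33.83 to 46.35 CPM), as 7.54% of all genes do. In controls every 24 h value of Chrd and Fstl3 lies above every 3 h value, and 26% of all genes separate these times.

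Counted together, 1 of the 9 antagonists, Nog, was lower past the threshold at 3 h with 5 µM BPAF; that follows from how it was picked, and the share of all genes called lower there, 0.0661%, is given only for completeness. At 24 h edgeR called 0 of 9 (1.57% of all genes were called), with 2 at an unadjusted p under 0.05 and 0 called by DESeq2. At 48 h edgeR called 0 of 9 against 7.16% of all genes, with 3 at an unadjusted p under 0.05 and 2 called by DESeq2 (Grem1 and Chrdl1). The unadjusted edgeR p was under 0.05 in 1902 of all 16433 genes at 24 h and in 3153 of 16345 at 48 h. Both shares called, 1.57% and 7.16%, are for edgeR alone. Groups without overlap at 48 h occurred in 1 of 9 members, Chrdl1, and in 7.54% of all genes, so 1 of 9 is near the background.

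With 1 µM BPAF, edgeR and DESeq2 each called 0 of 9 at each time, and 0 of 9 had an unadjusted p under 0.05. Such an unadjusted edgeR p was found in 424 of all 16631 genes at 3 h, 439 of 16439 at 24 h and 621 of 16479 at 48 h. The share of all genes called by edgeR was 0% at 3 h, 0.00608% at 24 h and 0% at 48 h, so a count of 0 is what other genes show too. Without the 1 µM libraries that nearly lacked Y-linked reads the counts were also 0. Between 5 and 1 µM, edgeR called 0 of 9 at 24 h (1.19% of all genes) and 0 of 9 at 48 h (5.96%), with 2 and 3 at an unadjusted p under 0.05 and 0 and 2 called by DESeq2. Of all genes, 1598 of 16496 at 24 h and 2953 of 16349 at 48 h had such an unadjusted edgeR p. With the library code as a block 2 members were called at 48 h. The 5 µM effect changed from 24 to 48 h for 0 of 9 (0.0693% of all genes), with 0 at an unadjusted p under 0.05 and 0 by DESeq2. For that change 806 of all 17315 genes had an unadjusted edgeR p under 0.05.

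**Figure D4:**
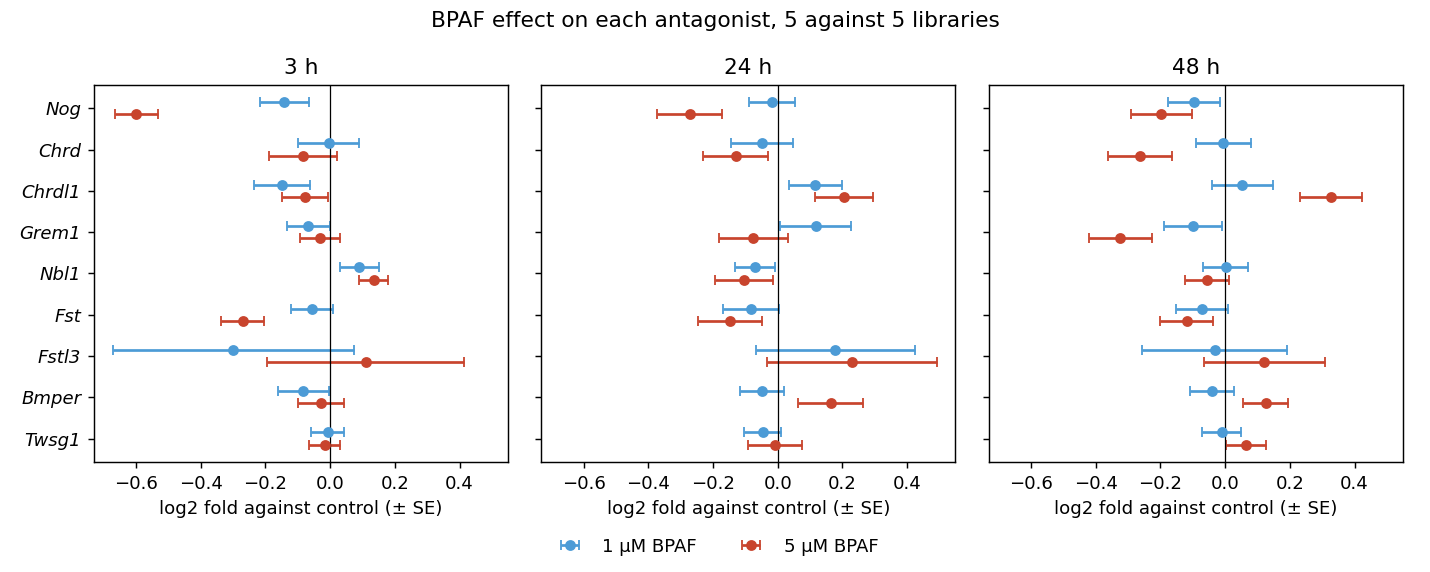
Fitted log2 fold against control with its SE for each antagonist at 1 and 5 µM BPAF, in panels for 3, 24 and 48 h, 5 libraries against 5. Nog at 3 h with 5 µM, at −0.60, lies farthest from 0, and the 1 µM values lie between −0.30 (Fstl3 at 3 h) and 0.18 (Fstl3 at 24 h).

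Markers of other cell types moved at the later times with 5 µM BPAF. Skeletal muscle markers fell in 8 of 17 tested at 24 h, where 1.1% of all genes were called lower, and in 16 of 18 at 48 h (4.42%), with a summed level of 2628 to 3127 CPM at 48 h against 4618 to 7253 CPM in controls. Macrophage markers fell in 9 of 12 at 48 h (180.5 to 213.8 against 272.7 to 364.8 CPM). Of 7 hypertrophic chondrocyte markers, Ibsp and Col10a1 were lower and Mmp13 higher at both 24 and 48 h. The shares of all genes called higher were 0.475% and 2.74%. The summed hypertrophic level at 48 h was 583.9 to 1057 CPM against 1120 to 1506 CPM in controls. Much of that sum was Ibsp, with means of 292 CPM with 5 µM and 725.2 CPM in controls. The list's median log2 fold at 48 h was 0.20 beside −0.0019 over all genes, so the sum does not speak for each marker. Of 10 endothelial markers 3 fell at 48 h, and of 19 chondrocyte markers 1, Fgfr3, rose at 24 and 48 h. At 3 h 0 of 19 chondrocyte, 0 of 18 muscle and 0 of 12 macrophage markers were called, where 0.18% of all genes were. A count of 0 is thus near the background. The list medians farthest from 0 at 3 h were epidermal, 0.27, and erythroid, −0.26, beside 0.0008 over all genes. Epidermal sums were 635.6 to 830 CPM against 468.5 to 735.3 CPM in controls, and erythroid sums 1772 to 2495 against 1943 to 3075 CPM. None of the 19 chondrocyte or 12 macrophage markers was at 0 in any library. The hypertrophic marker Mmp13 was at 0 in 4 libraries, and the muscle markers Tnnc2, Myf6 and Ckm in 14, 3 and 1. The summed forelimb mesenchyme level was 1941 to 2123 CPM at 3 h with 5 µM against 2016 to 2154 CPM in controls, and 1410 to 1510 against 1273 to 1371 CPM at 48 h. The part of these cell types in the antagonist values was not tested.

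Time in culture changed some antagonists in control limbs. From 3 to 24 h, 4 of 9 were called by edgeR (3 higher, 1 lower) where 37.8% of all genes were called (19.1% higher, 18.7% lower), so the family's share was near the background. Chrd rose from 26.37, 21.25, 23.22, 21.38 and 19.4 CPM to 41.84, 39.83, 40.33, 29.15 and 37.75 CPM. The 2 times did not overlap, and the difference was 0.75 ± 0.10 (edgeR adjusted p = 1.49e-05). Fstl3 rose from 0.6023 to 1.878 CPM at 3 h to 2.011 to 4.596 CPM at 24 h, also without overlap (1.26 ± 0.30, adjusted p = 0.00314). Such separation was seen in 2 of 9 members and in 26% of all genes.

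Fst rose by a smaller step, 0.23 ± 0.09 (edgeR adjusted p = 0.0404), and lost the call without any 1 of 7 libraries, with adjusted p from 0.054 to 0.133. Those were control 3 h replicates 1, 2, 3 and 4 and control 24 h replicates 1, 2 and 3. Grem1 fell from 44.62, 47.76, 55.27, 46.25 and 46.83 CPM at 3 h to 35.4, 42.29, 32.36, 45.24 and 32.83 CPM at 24 h. Its difference was −0.36 ± 0.09 (adjusted p = 0.00473; −0.25 and 0.0843 with the Y-linked covariate). Nog had means of 45.05 ± 2.69 CPM at 3 h and 45.12 ± 4.4 CPM at 24 h (SD, n = 5), a comparison that shares the 3 h controls and is given with no test.

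From 24 to 48 h, 2 of 9 were called (1 higher, 1 lower) against 16.3% of all genes (9.71% higher, 6.57% lower). Bmper rose from 35.59 to 44.71 CPM at 24 h to 46.55 to 52.08 CPM at 48 h, a difference of 0.36 ± 0.07 (edgeR adjusted p = 0.00195). Grem1 fell again, to 27.6 to 32.27 CPM, by 0.31 on the log2 scale (SE 0.10, adjusted p = 0.0423). Neither gene's times overlapped, which held for 12.4% of all genes. The second fall of Grem1 lost its call without any 1 of control 24 h replicates 1, 2 and 4 and control 48 h replicates 2, 3 and 5, with adjusted p from 0.052 to 0.11. Nog differed by −0.17 ± 0.07 (adjusted p = 0.143; 0.0362 without control 24 h replicate 3). With the Y-linked covariate Nog was called, at −0.25 (adjusted p = 0.044), and Grem1 lost its call (adjusted p = 0.0816).

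Markers of cell types also moved with time in control culture. Of all genes, 19.1% were called higher and 18.7% lower between 3 and 24 h. From 3 to 24 h, 18 of 19 chondrocyte markers rose, their sum going from between 5985 and 6491 CPM to between 13430 and 15920 CPM. In the same interval 9 of 10 epidermal markers fell, 7 of 10 forelimb mesenchyme markers fell (2016 to 2154 CPM down to 1635 to 1728 CPM) and 15 of 19 muscle markers rose. The part of these shifts in the antagonists' time course was not tested.

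Of 16 BMP feedback and target genes, Id1 and Msx2 were called higher at 3 h with 5 µM BPAF, in the contrast that picked Nog (0.114% of all genes were called higher). Id1, an inhibitor of basic helix-loop-helix factors, had a mean of 128.5 ± 9.3 CPM against 103.9 ± 4.62 in controls (SD, n = 5), and Msx2, a homeobox factor of the limb margin, 39.4 ± 3.4 against 29.64 ± 2.79. The fitted differences were 0.31 ± 0.05 and 0.42 ± 0.08. The count of 2 was 0 without control 3 h replicate 1 or 5 µM 3 h replicate 5, with all 9 groups in one fit and with the Y-linked covariate. It was 1 without control 3 h replicates 3 or 5 or 5 µM 3 h replicate 2. The list's median was 0.13 beside 0.0008 over all genes, and 13 of the 16 values were above 0.

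At 24 h, 2 of 16 targets rose with 5 µM and 0 fell, where 0.475% of all genes were called higher. Id2, a relative of Id1, went from 78.95 ± 5.59 to 98.9 ± 6.2 CPM (0.33 ± 0.07, edgeR adjusted p = 0.0207) and Atoh8, a helix-loop-helix factor, from 29.3 ± 3.92 to 39.42 ± 3.28 CPM (0.44 ± 0.10, adjusted p = 0.0337). The count was 0 to 3 when single libraries were left out; it was 0 without any 1 of control replicates 1, 2 and 3 and 5 µM replicates 1 and 2. Without replicate 5 of both groups it was 4. The list's median was 0.26 beside 0.0019 over all genes.

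At 48 h, 3 of 16 rose and 0 fell, where 2.74% of all genes were called higher. Id2 stood at 91.19 ± 4.93 against 69.16 ± 3.29 CPM (0.38 ± 0.06, edgeR adjusted p = 0.00039) and Bambi, a decoy receptor induced by BMPs, at 43.92 ± 3.86 against 34.55 ± 2.91 CPM (0.32 ± 0.08, adjusted p = 0.0179). Both kept the call in all 16 alternatives. Dlx5, a homeobox gene of cartilage and bone, differed by 0.32 ± 0.09 (adjusted p = 0.0282) and lost the call without any 1 of control 48 h replicates 1, 3, 4 and 5 and 5 µM 48 h replicates 1 and 3, with adjusted p up to 0.0659. Id1, by contrast, differed by −0.0012 ± 0.09 at 48 h. The list's median was 0.18 beside −0.0019 over all genes.

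Against 1 µM BPAF at the same times, Id2 was higher with 5 µM at 24 h (0.30 ± 0.06, edgeR adjusted p = 0.0142; 1 of 16 targets, where 0.242% of all genes were called higher). The Id2 call was lost without 1 µM 24 h replicate 4 or 5 µM 24 h replicate 1. Once replicate numbers, which count as pairing here by the rule used, entered as a block, 2 targets (Id2 and Id3) were called. At 48 h Id2, Bambi and Dlx6 were higher (3 of 16, where 2.19% of all genes were). Id2 differed by 0.42 ± 0.06 (adjusted p = 0.000278) and Bambi by 0.38 ± 0.08 (adjusted p = 0.00804). Dlx6 differed by 0.65 ± 0.18 (adjusted p = 0.0376), a call lost without any 1 of 1 µM replicates 1, 2, 4 and 5 and 5 µM replicates 1, 2 and 5.

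**Figure D5:**
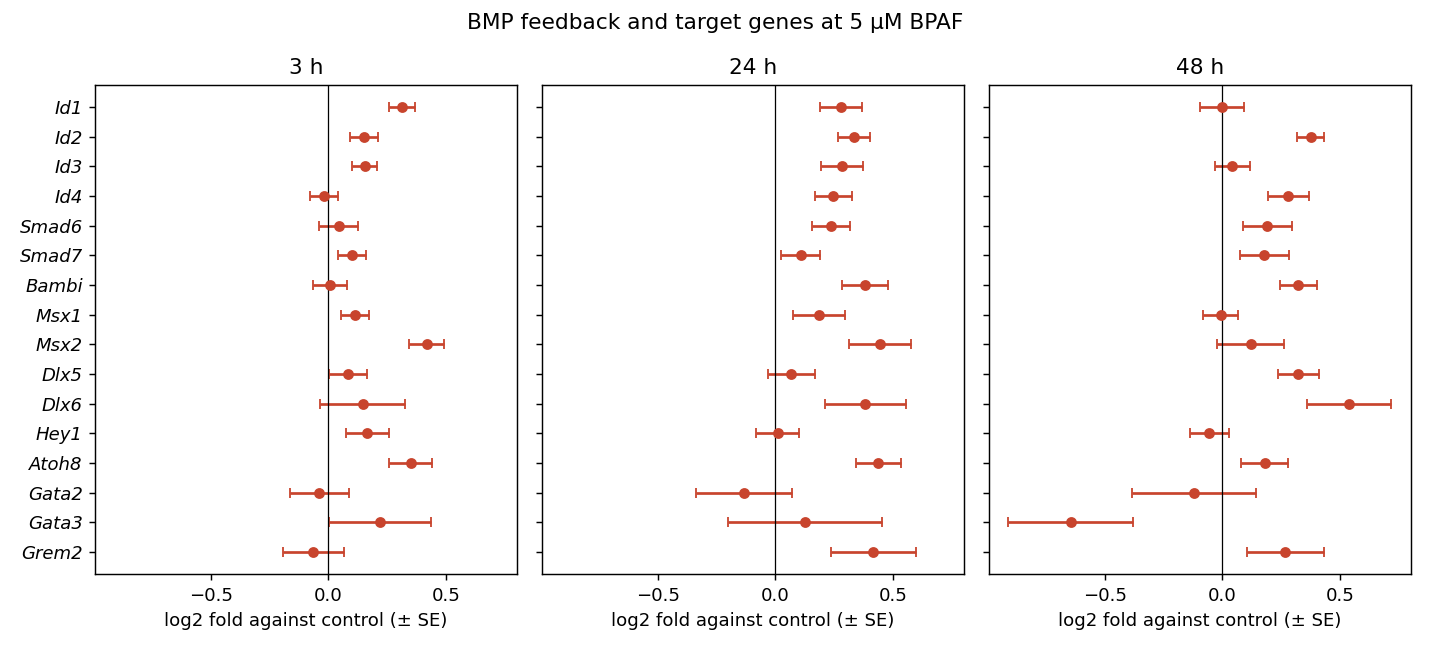
Fitted log2 fold with its SE for 16 BMP feedback and target genes at 5 µM BPAF against control, in panels for 3, 24 and 48 h. Id2 moves from 0.15 at 3 h to 0.33 and 0.38, while Id1 and Msx2, at 0.31 and 0.42 at 3 h, stand at −0.0012 and 0.12 at 48 h.

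The BMP and GDF ligand genes were listed as a family, not by whether these antagonists bind them. Of 15 tested, 1 fell at 24 h with 5 µM (1.1% of all genes were called lower) and 3, Mstn, Gdf11 and Gdf6, fell at 48 h (4.42%). Mstn, myostatin, a follistatin ligand made by muscle, went from 33.85 ± 8.44 to 19.16 ± 4.16 CPM at 24 h (−0.81 ± 0.17, edgeR adjusted p = 0.0259). At 48 h it went from 35.34 ± 10.3 to 15.29 ± 2.64 CPM (−1.23 ± 0.16, adjusted p = 7.71e-05), beside the muscle marker values above. The 24 h call was lost without any 1 of control replicates 1, 2, 3 and 4 and 5 µM replicates 1 and 3, with adjusted p up to 0.0961. Gdf11, a relative of myostatin, fell by 0.35 on the log2 scale at 48 h (SE 0.07, adjusted p = 0.0028), while Gdf15 rose by 1.02 ± 0.24 (adjusted p = 0.012). Gdf6, named here to complete the count, differed by −0.42 (SE 0.10, adjusted p = 0.02).

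Of 6 ligands that noggin can bind, Bmp2, Bmp4, Bmp5, Bmp7, Gdf5 and Gdf6, edgeR called none with 5 µM BPAF at 24 h (adjusted p from 0.347 to 0.997) and 1, Gdf6, at 48 h (−0.42 ± 0.10, adjusted p = 0.02). At 3 h, in the contrast that picked Nog, Bmp2 differed by 0.18 ± 0.05, Bmp4 by 0.08 ± 0.07, Bmp7 by 0.06 ± 0.06 and Gdf5, the joint ligand, by −0.26 ± 0.06. At 48 h those 4 differed by −0.10 ± 0.09, −0.05 ± 0.10, −0.22 ± 0.08 and 0.20 ± 0.09, with edgeR adjusted p of 0.601, 0.844, 0.133 and 0.231. Bmp5 differed by 0.02 ± 0.13 at 48 h (adjusted p = 0.963). The 6 were chosen as noggin's textbook ligands, after their values could be seen.

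At the other levels of the pathway, the counts at 48 h with 5 µM stand beside 7.16% of all genes called (2.74% higher, 4.42% lower). Of 12 receptors and co-receptors 2 fell, the BMP co-receptors Rgmb (−0.33 ± 0.06, edgeR adjusted p = 0.00208) and Rgma (−0.28 ± 0.07, adjusted p = 0.0225). Of 14 SMADs and their regulators 1 rose, Tob1, a repressor of BMP-SMAD transcription (0.36 ± 0.06, adjusted p = 0.00102). Of 20 other secreted modulators 2 fell: Sost, sclerostin, known as a Wnt inhibitor, from 2.137 ± 0.806 to 0.2989 ± 0.185 CPM (−2.82 ± 0.43, adjusted p = 0.000353), and Kcp, a chordin-like protein (−0.29 ± 0.08, adjusted p = 0.0327). Of 7 activin and TGF-beta ligands 1 rose, Inhbe, an activin subunit gene, from 0.4542 ± 0.309 to 1.773 ± 0.751 CPM. At 24 h these 4 lists had 0 called.

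With time in control culture, 9 of 16 targets fell and 1, Smad7, rose from 3 to 24 h, where 18.7% of all genes were called lower, with a median of −0.38 beside −0.0086 over all genes. Msx2 fell from 29.64 ± 2.79 to 7.949 ± 1.09 CPM and Msx1 from 130.9 ± 9.28 to 56.3 ± 8.47 CPM. Gata2, a zinc-finger factor, fell from 10.24 ± 1.39 to 3.277 ± 0.407 CPM. From 24 to 48 h 2 of 16 fell and 1 rose (6.57% and 9.71% of all genes). From 3 to 24 h 13 of 19 other secreted modulators rose, where 19.1% of all genes were called higher, and 2 fell. Gdf5 fell from 68.9 ± 9.96 to 40.71 ± 1.83 CPM between 24 and 48 h (−0.76 ± 0.09, adjusted p = 2.74e-05).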

How the data were processed

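Poly-A RNA of cultured mouse forelimb buds was measured in 45 libraries, 5 in each of 9 groups of dose and time. Upstream of the count tables, STAR 2.5, HTSeq 0.6.1, CASAVA 1.8 and DESeq2 are named per the submitters' processing notes, with mm10 as genome build; what each did is not given in the sources used here. Raw read counts were deposited by the authors for each gene, per the file headers, in 9 tables of 10 libraries. These were joined by gene identifier, and the counts of libraries present in more than 1 table differed in 0 cells. Each table leaves out some genes, and 11.7% of the cells, absent from the tables, were read as 0. Gene lengths are the authors' own column, per the file headers.

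Each comparison was fitted on the groups it names with edgeR 4.0.16 in R 4.3.3 (TMM scaling, filterByExpr with a minimum count of 10 and total of 15, quasi-likelihood F test). P-values were adjusted over all genes tested by the Benjamini-Hochberg method, and a gene was called at an adjusted p under 0.05. Standard errors are the log2 fold divided by the square root of F. CPM use TMM factors over all 45 libraries. The method was tested on simulated counts with 200 changed genes.

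The members and gene lists were chosen with earlier results of these data known. No p-value is printed for Nog in a contrast with the 3 h controls. Counts of called members in those contrasts include Nog and are no test of it. Other genes are named by list: up to 3 called genes per list and comparison, by adjusted p. Other values of those genes, the neighbours of Nog and the values of Tbx5, Pitx1 and Tbx4 are given as descriptions. The cell type marker lists were summed as CPM. Promoters come from a RefSeq table, and the 50 bases after each start were left out.

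Alternatives were DESeq2 1.42.0, RLE size factors, no filter, the replicate number as a block, all 9 groups in one fit, a Y-linked covariate, and each library left out. Replicate numbers count as pairing where each of 5 pairs had deviations that correlate above 0.1. This held for 1 µM against control (0.18 to 0.507) and 5 against 1 µM (0.1 to 0.284) at 24 h, and by library code at 48 h for 1 µM against control (0.202 to 0.579) and 5 against 1 µM (0.133 to 0.428). For 5 µM against control, 4 of 5 pairs passed at each time, with lowest values of 0.031, 0.012 and 0.063 at 3, 24 and 48 h. Pairs with unlike numbers were not used as a reference for the limit of 0.1.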

Additional observations from a re-analysis of the deposited data

Results flagged for a closer look

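Of 81 sets of 5 libraries (9 genes in 9 groups), 9 held a library whose gap to the nearest other exceeded Dixon's limit, and chance gives about 1 in 20. Nog stood at 25.34 CPM in 5 µM 3 h replicate 2, below 30.27 to 31.44 CPM in the others. In 5 µM 48 h replicate 1, Grem1 was low at 18.91 CPM and Fst high at 51.9 CPM. In 5 µM 48 h replicate 2, Bmper was low at 46.91 CPM and Nbl1 high at 176.3 CPM. Chrdl1 was high at 62.73 CPM in 5 µM 48 h replicate 5. Chrd was high at 43.3 CPM in 1 µM 24 h replicate 3. Among controls, Twsg1 was low at 199.3 CPM in 24 h replicate 5, which also had a high haemoglobin sum (2489 CPM), and Nbl1 was low at 138.2 CPM in 48 h replicate 1. The part of library quality or tissue makeup in these values was not tested.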

How the results depend on the processing

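Of 1710 values of single members under alternatives, 1655 kept direction and side of the threshold, 38 passed it newly, 17 lost it and 0 of the called values changed sign; 76 uncalled values did. Counts of called members moved as follows, and the cause was not tested. At 3 h with 5 µM BPAF DESeq2 called 2. At 24 h the replicate block called 1 and the Y-linked covariate 1, in place of 0, and leaving out single libraries gave 0 to 1. At 48 h, in place of 0, DESeq2 called 2, RLE size factors 1, no filter 2, the replicate block 3, all 9 groups in one fit 2 and the Y-linked covariate 2, with 0 to 1 when single libraries were left out. For 5 against 1 µM at 48 h, in place of 0, DESeq2 called 2, no filter 1, the replicate block 2 and all 9 groups in one fit 1. The block by library code, which counts as pairing by the rule used here, called 2 (Chrd and Chrdl1). Leaving out single libraries gave 0 to 1 in that comparison. For 5 against 1 µM at 24 h leaving out single libraries gave 0 to 1. In controls the Y-linked covariate called 2 in place of 4 from 3 to 24 h, and leaving out single libraries gave 1 to 2 in place of 2 from 24 to 48 h, where the Y-linked covariate called 2 but Nog in place of Grem1. In the other comparisons the block changed no call of a member except Fst in controls from 3 to 24 h (adjusted p = 0.0571). The 24 h count of BMP targets called higher, 2, was 4 with DESeq2, 6 with the replicate block, 6 with all 9 groups in one fit and 1 with the Y-linked covariate.

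The number of all genes called moved by over 1.5 times in these cases, single libraries left out last. At 3 h with 5 µM it was 30, and 115 with DESeq2, 79 with no filter and 62 with the replicate block. At 24 h it was 258, and 517 with DESeq2, 655 with the replicate block, 587 with all 9 groups, 434 with the Y-linked covariate and 514 without number 5 of both groups. For 5 against 1 µM it was 196 at 24 h, and 339, 319, 348 and 329 under the first 4 of these, and 974 at 48 h, and 1618 with the block by library code. For 1 µM against control it was 1 at 24 h, and 2 with DESeq2, 3 with no filter and 2 with the block, and 0 at 48 h, and 4 with DESeq2 and 1 with no filter. For the change of the 5 µM effect it was 12, and 50 with DESeq2, 27 with no filter, 28 with the block, 38 with all 9 groups and 4 without number 5. Leaving out single libraries moved it to 15 to 19 at 3 h with 5 µM (without any 1 of control replicates 1 and 5 and 5 µM replicates 2 and 5). At 24 h it moved to 109 to 161 (control replicates 1 to 4, 5 µM replicates 1 to 3), and to 498 without 5 µM replicate 5. For 5 against 1 µM at 24 h it moved to 95 to 107 (1 µM replicates 2, 4 and 5, 5 µM replicate 1), and to 553 without 5 µM replicate 5. For the change of the 5 µM effect it moved to 2 to 7 (control 24 h replicates 2, 3 and 5, 5 µM 24 h replicates 3 and 4, control 48 h replicates 3 and 5, 5 µM 48 h replicates 1 and 5), and for 1 µM at 3 h from 0 to 1 without control replicate 4. The shares of all genes printed beside the members move with these counts. Depth limits Fstl3 most: at 0.5771 to 6.458 CPM its SE reached 0.37 on the log2 scale, against at most 0.11 for the other members in comparisons with control.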
